A study of Caenorhabditis elegans with 2 samples.

Results

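HMG-20 regions that recurred in both replicates' own peak lists were described here. The data are chromatin immunoprecipitation sequencing (ChIP-seq) of HMG-20 in Caenorhabditis elegans, in 1 group of 2 biological replicates. The worms were of strain RW12240, in which CRISPR had inserted a TY1, EGFP and 3xFLAG tag at hmg-20 on chromosome I (allele st12240), and chromatin was precipitated with an anti-GFP antibody. They were young adults at 64 hours, synchronised by starving L1 larvae after bleaching, and carried no other listed change. Whole animals were used, so binding in different cell types was pooled, and no untagged strain or control library was analysed here. Each replicate has its own peak list, and a conservative list was derived from the pair. All of these lists pass a threshold on the irreproducible discovery rate (IDR), a measure of how well the ranks of peaks repeat. Of the 979 nuclear conservative regions, 271 overlapped, by at least 1 bp, a region of the replicate 1 list and also a region of the replicate 2 list. These 271 regions are called the core, and they made up 27.7% of the nuclear conservative regions. The remaining 708 regions are called the other regions. Membership was set by the replicate lists. Their scores tend to rise with the signal, with exceptions, so signals are given as a description without a test. Mitochondrial regions were left out.

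HMG-20 belongs to the proteins with a high-mobility-group box, a domain that binds and bends DNA. The mammalian protein HMG20B, which also has such a box, is known as a partner of the LSD1 and CoREST corepressor, which removes methyl groups from histone H3. Regions near small RNA genes, near protein-coding genes and away from promoters make up the core. tRNA genes are transcribed by RNA polymerase III from promoter elements inside the gene, the A box and the B box. Spliced leader RNAs are short RNAs whose first part, the leader, is joined by trans-splicing to the start of many worm mRNAs. Chemical changes of ribosomal and spliceosomal RNA are guided by snoRNAs. On X, worm hermaphrodites recruit a dosage compensation complex that lowers transcription, and a sequence element named MEX is known from its recruitment sites.

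The sequences of 10 core regions are shown as examples. They do not cover every kind of region in the core and are not in proportion to it. They are the plus strand of the RefSeq WBcel235 genome, the same assembly as ce11, printed 5′ to 3′. The first 5 are the strongest of the 8 X core regions outside promoters that hold the letters GCGCAGGG, taken from within the MEX element. Capitals mark these letters on either strand, so a match on the minus strand reads CCCTGCGC.

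X region of rank 4 (chrX:6296454-6296670): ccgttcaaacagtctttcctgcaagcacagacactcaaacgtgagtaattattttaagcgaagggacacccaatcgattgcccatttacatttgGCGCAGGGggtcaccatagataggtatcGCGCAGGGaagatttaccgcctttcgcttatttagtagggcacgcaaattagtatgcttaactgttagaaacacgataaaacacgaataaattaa

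X region of rank 5 (chrX:11094050-11094329): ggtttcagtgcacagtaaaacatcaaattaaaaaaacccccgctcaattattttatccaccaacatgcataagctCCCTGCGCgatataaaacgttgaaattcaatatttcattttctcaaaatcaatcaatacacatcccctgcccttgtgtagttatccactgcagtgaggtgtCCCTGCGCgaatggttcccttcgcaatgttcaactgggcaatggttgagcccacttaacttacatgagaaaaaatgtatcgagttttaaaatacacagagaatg

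X region of rank 9 (chrX:2996996-2997172): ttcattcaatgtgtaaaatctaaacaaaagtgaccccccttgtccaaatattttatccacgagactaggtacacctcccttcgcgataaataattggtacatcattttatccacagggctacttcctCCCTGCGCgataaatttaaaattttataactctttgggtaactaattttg

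X region of rank 12 (chrX:4209193-4209371): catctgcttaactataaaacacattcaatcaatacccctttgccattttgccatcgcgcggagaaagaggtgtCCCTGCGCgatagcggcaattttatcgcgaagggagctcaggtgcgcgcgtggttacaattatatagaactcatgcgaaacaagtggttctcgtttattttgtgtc

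X region of rank 14 (chrX:806601-806770): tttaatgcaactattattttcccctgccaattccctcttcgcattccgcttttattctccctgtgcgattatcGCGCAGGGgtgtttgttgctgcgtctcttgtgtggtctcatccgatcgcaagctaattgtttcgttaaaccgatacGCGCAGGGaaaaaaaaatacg

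The next sequence is the strongest core region near a tRNA gene in which a B box was found. Capitals mark the B box, which lies inside the alanine tRNA gene F15G9.t1.

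F15G9.t1 region (chrX:9743504-9743759): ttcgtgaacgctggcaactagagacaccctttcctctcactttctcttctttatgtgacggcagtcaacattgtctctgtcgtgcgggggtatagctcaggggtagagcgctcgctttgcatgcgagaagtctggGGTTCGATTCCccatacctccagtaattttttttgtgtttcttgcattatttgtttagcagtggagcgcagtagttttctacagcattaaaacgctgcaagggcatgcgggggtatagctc

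The strongest core region of all covered the snoRNA gene ZK994.7, and the regions at sls-2.1 and sls-2.2 ended in genes of spliced leader RNAs. Capitals mark the bases that lie inside the gene.

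ZK994.7 region (chrV:8500445-8500659): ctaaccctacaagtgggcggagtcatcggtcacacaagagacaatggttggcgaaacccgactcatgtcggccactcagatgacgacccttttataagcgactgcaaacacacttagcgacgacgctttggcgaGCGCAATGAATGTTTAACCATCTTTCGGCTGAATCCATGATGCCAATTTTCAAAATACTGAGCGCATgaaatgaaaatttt

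sls-2.1 region (chrII:5844733-5844932): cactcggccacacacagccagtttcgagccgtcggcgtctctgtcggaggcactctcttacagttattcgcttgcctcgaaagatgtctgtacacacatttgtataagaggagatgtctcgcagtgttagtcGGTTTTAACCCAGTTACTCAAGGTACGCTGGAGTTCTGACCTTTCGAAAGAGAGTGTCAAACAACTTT

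sls-2.2 region (chrII:5543501-5543652): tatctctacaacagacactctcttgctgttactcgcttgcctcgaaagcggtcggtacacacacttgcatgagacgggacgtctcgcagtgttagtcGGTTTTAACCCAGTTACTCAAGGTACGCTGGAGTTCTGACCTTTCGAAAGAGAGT

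The last sequence is the strongest core region upstream of a protein-coding gene, rpl-3, and it overlaps no annotated UTR. Capitals mark the 20 bases around the summit.

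rpl-3 region (chrIII:3867484-3867668): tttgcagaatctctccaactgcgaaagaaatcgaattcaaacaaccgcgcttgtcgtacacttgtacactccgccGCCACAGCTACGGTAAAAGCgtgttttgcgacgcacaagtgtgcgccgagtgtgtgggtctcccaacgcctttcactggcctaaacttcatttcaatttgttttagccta

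The core held the strongest regions, as a description of how it was chosen. The pooled signal is the authors' signal value for the peak over both replicates. This signal had a median of 121 in the core (quartiles 99.1 and 173) and of 69.7 in the other regions (quartiles 61.7 and 79.8). It ranged between 2.33 and 423 in the core and between 2.43 and 136 in the other regions. With the regions ranked by signal and split into 10 groups, the core contained 97 of 97 in the strongest group, 79 of 98 in the next and 47 of 98 in the one after. In groups 6 to 10 it contained 0, 2, 2, 0 and 4 of 98 regions. Only 6 other regions lay above the core median, and 7 core regions lay below the median of the other regions. The highest possible score of 1000 was given to 270 of 271 core regions and to 419 of 708 other regions. The depth of the libraries is unknown, since the lists give no read totals.

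**Figure D1:**
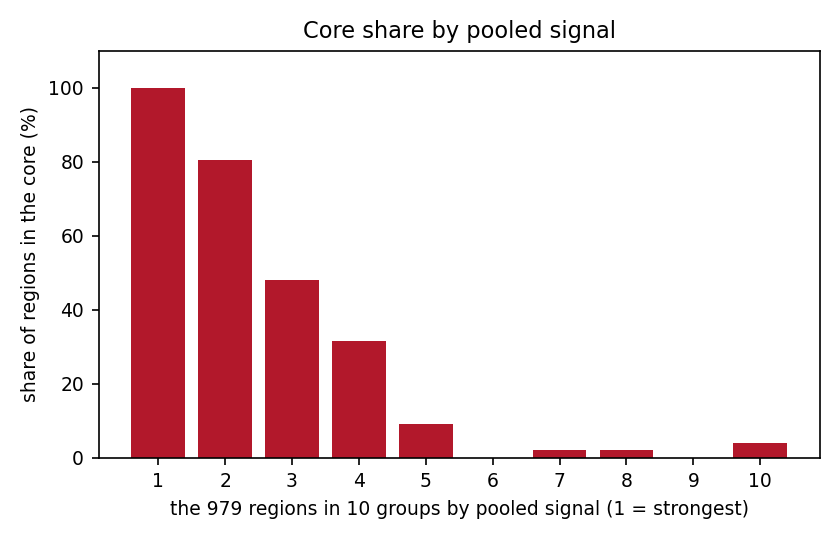
Share of regions that belong to the core (percent, bars) in each of 10 groups of the 979 nuclear conservative regions, ranked by pooled signal with the strongest group at the left. The share was 100% in group 1, 80.6% in group 2, and 0% in groups 6 and 9.

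Both replicates contributed similar numbers of regions. The replicate 1 list held 433 of the conservative regions (44.2%) and the replicate 2 list held 405 (41.4%). Of these, 162 regions were in the replicate 1 list alone and 134 in the replicate 2 list alone, and 412 were in neither. Behind the 271 core regions stood 268 distinct regions of the replicate 1 list, or 53.8% of its 498 nuclear regions. The same count for replicate 2 was 269, or 60.0% of its 448 nuclear regions. None of the 267 replicate 1 regions that overlapped a replicate 2 region was missing from the conservative list (0 regions).

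Signals in single replicates were taken from each replicate's own ranked list. The median core signal was 66.2 in replicate 1 and 56.7 in replicate 2. Replicate 1 had the higher signal at 191 core regions and replicate 2 at 80, and the median ratio of replicate 1 over replicate 2 was 1.18. By the pair of values in the series' ranked list, the replicates were more than 2 fold apart at 13 core regions (4.80%) and at 39 other regions (5.51%). Their own summits lay a median of 17 bp apart in the core, and 89.7% were within 50 bp of each other. In the other regions with a summit in both ranked lists the median was 26 bp and 73.2% were within 50 bp. The ranks of the replicate signals had a Spearman rho of 0.684 over 271 core regions and of -0.107 over the other regions. Both values come from regions chosen on these same signals and share 2 libraries, so they describe the sets and test nothing.

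**Figure D2:**
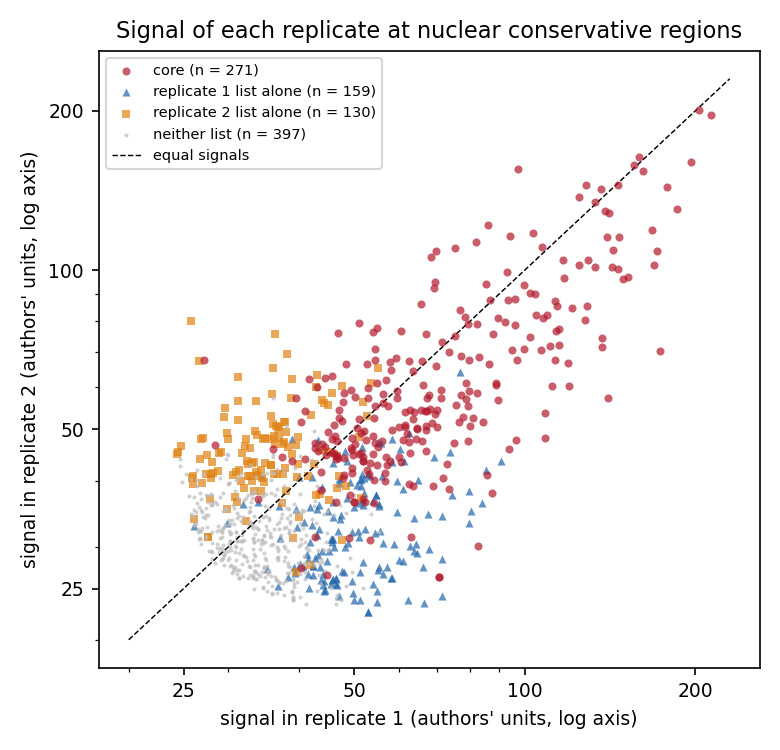
Signal in replicate 2 against signal in replicate 1 (both in the authors' units, log axes) at nuclear conservative regions with a value in both ranked lists. Red circles are the core, blue triangles and orange squares are regions in 1 replicate list alone, grey points are in neither list, and the dashed line marks equal signals. The core reaches 213 in replicate 1 and 201 in replicate 2.

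Regions on each side of the edge of the core were picked for scores near the threshold. The score is the scaled IDR, and the lowest in the thresholded lists was 830. The 3 regions just inside, by the lower of their replicate scores, were at C47E8.11 (830 in replicate 1), T07F10.3 (831 in replicate 1) and the pseudogene C52E12.t1 (832 in replicate 1). The 3 just outside were at the tRNA gene ZK1067.t1 (826 in replicate 2), the snoRNA gene W04D2.7 (825 in replicate 1) and lin-66 (821 in replicate 1), a heterochronic gene. The pooled signals were 81.3, 115 and 87.3 at the 3 regions inside and 91.1, 80.4 and 80.7 at the 3 outside, so these ranges overlapped. A further limit is that 3 core regions, near his-68, C37C3.1 and pgk-1, overlapped a stronger core region and rested on the same replicate regions. Their pooled signals of 15.1, 8.94 and 2.33 were the lowest in the core, so the core held 268 separate summits.

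The strongest other regions were also examined, to show what fell outside. The region upstream of sqd-1 had a signal of 90.9 in replicate 1 and 43.6 in replicate 2 and was in the replicate 1 list alone. The region upstream of scpr-1 had 85.3 in replicate 1 and 42.0 in replicate 2 and was also in the replicate 1 list alone. The region upstream of rpb-11, which encodes a subunit of RNA polymerase II, had 55.0 in replicate 1 and 65.4 in replicate 2 and was in the replicate 2 list alone. The tRNA gene R01H5.t1 had 71.7 in replicate 2 and no overlapping region in the ranked list of replicate 1. There the series' ranked list, which gives both replicates' values without naming them, paired 71.7 with 48.1. The remaining 4 of these 8 were at sup-6, F25D1.11, cpt-2 and 21ur-15381, all in the replicate 1 list alone. The pooled signal of the 8 ran from 117 to 136. At 6 of the 8, then, only the replicate 1 list held the region.

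Most core summits lay in promoters, and few lay in exons. A promoter was taken to run from 1000 bp upstream of an annotated transcript's 5′ end to 200 bp downstream, and the other summits were placed in exons, then introns, then intergenic sequence. Promoters held 229 of 271 core summits, or 84.5% (95% exact binomial interval 79.6 to 88.6), and 524 of 708 other summits, or 74.0% (70.6 to 77.2). Exons held 5 core summits (1.85%, interval 0.602 to 4.25) and 70 other summits (9.89%, interval 7.79 to 12.3). Introns held 2.95% of core summits and 5.65% of the others, and intergenic sequence held 10.7% and 10.5%. Over all 59096 ranked nuclear regions, promoters held 39.0% and exons 29.1%. These intervals cover counting error only, and neighbouring regions are not independent.

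The promoter share was read beside the signal, because the sets differ in signal. Among the conservative regions in the strongest of 4 groups by signal, 167 of 202 core summits (82.7%) and 37 of 43 other summits (86.0%) were in promoters. In the next group the shares were 55 of 61 (90.2%) in the core and 139 of 184 (75.5%) in the others. Promoter shares of the sets thus lay in opposite order in these groups. Without the windows of tRNA, snoRNA and snRNA genes, promoters held 76.1% of 176 core summits and 64.0% of 511 other summits.

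**Figure D3:**
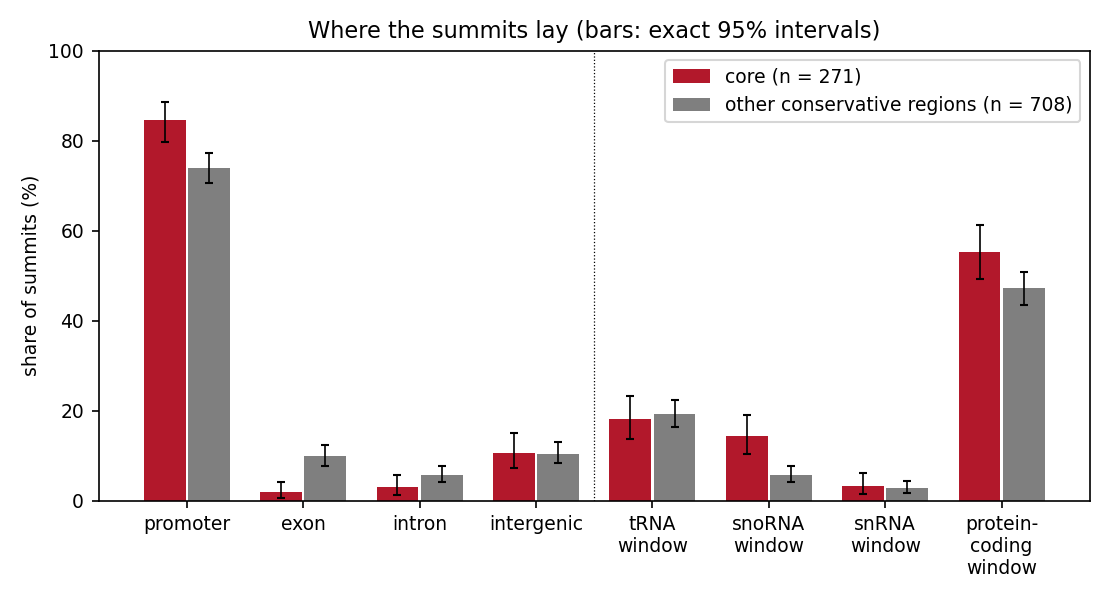
Share of summits (percent) by location, left of the dotted line, and in the promoter windows of gene classes, right of it, for the core (red, n = 271) and the other conservative regions (grey, n = 708). Whiskers are exact 95% binomial intervals. A summit can lie in the windows of several classes, and the snoRNA share was 14.4% in the core and 5.79% in the other regions.

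Windows of snoRNA genes held a larger share of the core than of the other regions, and windows of tRNA genes did not. Promoter windows of snoRNA genes contained 39 core summits (14.4%, interval 10.4 to 19.1) and 41 other summits (5.79%, interval 4.19 to 7.77). Those of tRNA genes contained 49 core summits (18.1%, interval 13.7 to 23.2) and 136 other summits (19.2%, interval 16.4 to 22.3). Those of snRNA genes, a class in which the annotation also places spliced leader genes, contained 9 core summits (3.32%) and 20 others (2.82%). The windows of protein-coding genes contained 150 core summits (55.4%) and 334 others (47.2%). No test between the sets was made. Of these 4 classes, snoRNA genes alone had intervals that did not overlap between the sets. The sets differ in signal, and the snoRNA share was not split by signal. Windows of the 3 small RNA classes together held 36.6% of core and 30.2% of other summits in the strongest of the 4 groups by signal. In the next group they held 34.4% and 38.6%, the opposite order.

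Read the other way, the core took different shares of each kind of region, when each region was given to 1 kind only in the order tRNA, snoRNA, snRNA, protein-coding. It took 38 of 79 snoRNA regions (48.1%, interval 36.7 to 59.6) and 121 of 394 protein-coding regions (30.7%, interval 26.2 to 35.5). It took 49 of 185 tRNA regions (26.5%, interval 20.3 to 33.5) and 8 of 28 snRNA regions (28.6%). Outside promoters it took 42 of 226 (18.6%, interval 13.7 to 24.3). The snoRNA share lay above the 27.7% of all regions, and the share outside promoters lay below it. Among regions in 1 list alone, tRNA windows held 42 of the 134 of replicate 2 (31.3%, interval 23.6 to 39.9) and 30 of the 162 of replicate 1 (18.5%, interval 12.9 to 25.4), and these intervals overlapped. snoRNA windows held 8.96% of those of replicate 2 (interval 4.71 to 15.1) and 5.56% of those of replicate 1 (interval 2.57 to 10.3). snRNA windows held 1.49% of those of replicate 2 (interval 0.181 to 5.29) and 3.70% of those of replicate 1 (interval 1.37 to 7.89). In the core, the median ratio of replicate 1 over replicate 2 was 1.06 at tRNA regions, 1.08 at snoRNA regions, 1.22 at protein-coding regions and 1.38 at snRNA regions.

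Summits lay close to the annotated 5′ ends of small RNA genes and further upstream of those of protein-coding genes. Trans-splicing changes the start of many mRNAs, so an annotated 5′ end of a protein-coding gene need not be where transcription starts. The distances of the classes may therefore not be alike in meaning, and positions relative to transcription starts were not measured. Core summits with a tRNA gene as nearest neighbour had a median of 0 bp to its 5′ end, and 97.9% of 47 were within 100 bp. Near snoRNA genes the median was 32 bp upstream, and 93.8% of 32 core summits were within 100 bp. Near snRNA genes the 8 core summits had a median 20.5 bp upstream, and all lay within 100 bp. Near protein-coding genes the median was 151 bp upstream in the core, with quartiles at -257 and -12.5 bp, and 25.4% of 142 were within 100 bp. For the other regions it was 98.5 bp upstream, with quartiles at -316 and 492 bp, and 17.0% of 388 were within 100 bp. The upper quartile for protein-coding genes thus lay upstream of the 5′ end in the core and downstream of it in the other regions.

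**Figure D4:**
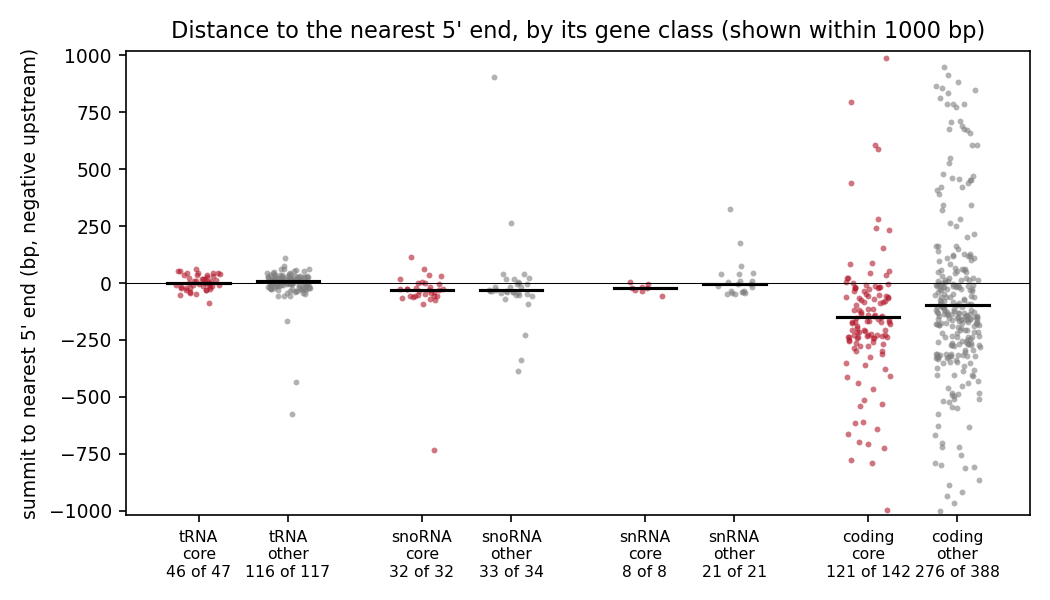
Distance from the summit to the nearest annotated 5′ end (bp, negative is upstream) by the class of that gene, where coding stands for protein-coding, with the core in red left of the other regions in grey. Each point is 1 region within 1000 bp, black bars are medians over all regions of the class, and the numbers under the axis give the points shown of all regions. Core summits near tRNA genes centre on 0 bp, and those near protein-coding genes on 151 bp upstream.

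A core summit was found in the promoter of 420 of 46890 nuclear genes, or 0.896%. Many of these genes share a summit with a neighbour, so the genes are not independent. The share was 12.4% for snoRNA genes (43 of 346), 9.80% for tRNA genes (60 of 612) and 6.98% for snRNA genes (9 of 129). It was 1.05% for protein-coding genes (210 of 19973), 1.00% for other ncRNA genes (78 of 7764) and 0.0651% for piRNA genes (10 of 15363). Any conservative summit was found at 84 snoRNA genes, 218 tRNA genes and 32 snRNA genes, and at 3.13% of protein-coding genes.

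The core's strongest region was at ZK994.7, a snoRNA gene (WBGene00044958) on the plus strand of chromosome V from 8500579 to 8500645. Its signal was 213 in replicate 1, the highest of the core there, and 197 in replicate 2, where rpl-3 was higher at 201. The summit lay 27 bp upstream of the gene, within the 215 bp printed above. The lysine tRNA gene ZK994.t2 also had this summit in its window, 916 bp away. C51F7.3 and C51F7.4, neighbouring snoRNA genes on chromosome V, shared a region with 125 in replicate 1 and 137 in replicate 2. T27A8.8 on X had 139 in replicate 1 and 129 in replicate 2, with its summit 735 bp upstream, so this snoRNA gene was the nearest gene but not a close one. K11H12.12 and K11H12.13 lie within the span of rpl-15 and shared its region, so the snoRNA genes and the ribosomal protein gene cannot be told apart there.

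Among spliced leader genes, 5 of 31 had a core summit and 15 of 31 had any conservative summit. The strongest was sls-2.1 (WBGene00004833; chromosome II, 5844865 to 5844974), with 171 in replicate 1 and 109 in replicate 2. Its relative sls-2.2 had 121 in replicate 1 and 84.8 in replicate 2, and sls-2.4 had 111 in replicate 1 and 71.8 in replicate 2. All 3 encode SL2 RNAs, whose leader is joined to mRNAs from downstream genes of operons. Replicate 1 was higher at each of them. In the sequences printed above, the 55 gene bases covered in both regions were identical between sls-2.1 and sls-2.2 (55 of 55). The 97 bases before the gene matched at 77 positions (79.4%) without gaps, with a longest shared run of 17 bases. The members sls-2.9 and sls-2.8 had 75.1 and 66.6 in replicate 1 and 47.2 and 54.3 in replicate 2. Another snRNA gene, WBGene00014543 on chromosome III, had 117 in replicate 1 and 105 in replicate 2, and the annotation gives its name R07E5.16 to several copies. How reads from alike copies of these genes were placed is not given in the sources used here, so values at single copies are uncertain.

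The core's tRNA genes were spread over the amino acids and concentrated on X. A core summit was found at 41 of 276 tRNA genes on X (14.9%, interval 10.9 to 19.6) and at 19 of 336 on autosomes (5.65%, interval 3.44 to 8.69). These stood for 32 separate summits on X and 17 on autosomes. Any conservative summit was found at 123 X tRNA genes (44.6%) and at 95 autosomal ones (28.3%). By isotype, core summits were found at 6 of 42 proline, 6 of 46 lysine and 5 of 19 tyrosine tRNA genes, and at 0 of 27 glutamine tRNA genes. Among the strongest were the glycine gene M02F4.t1 and the glutamate gene M02F4.t2, which stand back to back on X and shared a region with 113 in replicate 1 and 87.3 in replicate 2. The alanine genes F15G9.t1 and F15G9.t2 shared a region with 115 in replicate 1 and 77.5 in replicate 2. How reads from near-identical tRNA copies were placed is not given in the sources used here, so values at single copies are uncertain.

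The B box was found in 18 of 49 core regions with a tRNA window (36.7%, interval 23.4 to 51.7) and in 61 of 136 others with such a window (44.9%, interval 36.3 to 53.6). The search used the B box consensus capitalised above, with the base before its last 3 left free, on both strands of the region itself, so a tRNA gene beside the region or with other letters was not counted. Over whole sets, 7.38% of core regions, 8.90% of other regions and 0.533% of all ranked regions held it. Without X, an alternative added after seeing the data, the shares were 2.42% of 207 core regions (interval 0.789 to 5.55) and 5.52% of 562 other regions (interval 3.78 to 7.74). The 18 matches at tRNA windows had a median distance of 62.5 bp from the summit. In the F15G9.t1 sequence above the B box was nearer, centred 12 bp after the summit.

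Among protein-coding genes, those of the ribosome supplied many of the strongest core regions. A core summit was found at 7 of 50 genes of the large ribosomal subunit (14.0%, interval 5.82 to 26.7) and at 5 of 32 of the small subunit (15.6%, interval 5.28 to 32.8), where 1.05% was the share of all protein-coding genes. Any conservative summit was found at 15 and 11 of these genes. The rpl-3 region (WBGene00004414, chromosome III) had 203 in replicate 1 and 201 in replicate 2, which lay within 1% of each other. The rpl-20 region on chromosome IV had 196 in replicate 1 and 160 in replicate 2, and its summit was nearer to the 5′ end of Y17G9B.5. The rpl-15 region on the same chromosome had 161 in replicate 1 and 154 in replicate 2. These 3 ranked in the strongest 7 of all regions. For rpl-35 the signals were 146 in replicate 1 and 115 in replicate 2, and for rpl-7A they were 87.9 in replicate 1 and 75.7 in replicate 2. In the small subunit, rps-1 had 97.4 in replicate 1 and 155 in replicate 2, and rps-19 had 69.2 in replicate 1 and 92.5 in replicate 2. At both of these, replicate 2 was the higher, and both summits lay nearer to another gene's 5′ end. The regions of rps-20, rps-12 and rps-24 had 77.2, 73.6 and 46.4 in replicate 1 and 58.0, 38.5 and 44.0 in replicate 2. The summits of rps-20 and rps-12 lay nearer to ekl-4 and ska-3. Mitochondrial ribosomal protein genes had a core summit at 2 of 66 (3.03%, interval 0.369 to 10.5), mrpl-12 and mrpl-23. The mrpl-12 summit lay nearer to Y39A1A.22, and the mrpl-23 summit nearer to the snoRNA gene T08B2.13.

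Other genes of protein synthesis and folding followed in smaller counts. Translation factors had a core summit at 3 of 48 genes. At ifet-1, which encodes a partner of the cap-binding protein, the region is the one also assigned to rps-1. The region at eif-3.C, a subunit of an initiation factor, had 96.2 in replicate 1 and 88.2 in replicate 2, and that of the elongation factor gene eef-2 had 70.0 in replicate 1 and 50.6 in replicate 2. Chaperones had a core summit at 6 of 67 genes (8.96%, interval 3.36 to 18.5). The chaperonin gene cct-8 had 128 in replicate 1 and 145 in replicate 2, and hsp-90 had 107 in replicate 1 and 70.5 in replicate 2. The mitochondrial chaperonin gene hsp-60 had 92.2 in replicate 1 and 79.8 in replicate 2, and dnj-19 and dnj-9 had 82.4 and 71.2 in replicate 1 and 58.5 and 59.3 in replicate 2. The summits of cct-8, hsp-90, hsp-60 and dnj-19 lay nearer to the 5′ end of a neighbouring gene. Aminoacyl-tRNA synthetases (0 of 32) and proteasome subunits (0 of 33) had no core summit. Counting error allows up to 10.9% and 10.6% for these, which takes in the 1.05% of all protein-coding genes.

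Genes of RNA processing, chromatin and replication were represented by a few members each. Splicing factors had a core summit at 5 of 68 genes (7.35%, interval 2.43 to 16.3), and 6 had any conservative summit. The helicase gene mog-4 had 149 in replicate 1 and 96.0 in replicate 2, and rsr-1 had 109 in replicate 1 and 48.2 in replicate 2, a region it shares with the chemoreceptor gene sri-5. The Sm protein gene snr-4 had 54.4 in replicate 1 and 71.0 in replicate 2, next to the snRNA gene T11F9.15. The regions of prp-19 and snrp-3 had 54.9 and 49.3 in replicate 1 and 61.2 and 46.2 in replicate 2. The prp-19 summit lay nearer to K10D2.5. The gene rpr-1, for the RNA part of RNase P, the enzyme that trims the 5′ ends of tRNAs, had 140 in replicate 1 and 116 in replicate 2, with its summit 9 bp inside the gene.

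The DREAM complex, which represses cell cycle genes, had a core summit at 3 of 8 genes, and a conservative summit at 4. At lin-53, which encodes a histone-binding subunit, the region had 93.0 in replicate 1 and 99.0 in replicate 2. At lin-9 the signals were 86.9 in replicate 1 and 87.7 in replicate 2. The region of lin-54, the DNA-binding subunit, had 80.0 in replicate 1 and 50.7 in replicate 2, and its summit lay nearer to rpl-12. The region at efl-1, which encodes an E2F factor, had 41.1 in replicate 1 and 29.8 in replicate 2 and was in neither replicate list. With 8 genes the interval of the share, 8.52 to 75.5%, is wide. The replication list had a core summit at 2 of 51 genes (3.92%, interval 0.478 to 13.5). The rpa-2 region had 137 in replicate 1 and 71.7 in replicate 2, and its summit lay nearer to M04F3.7. The sliding clamp gene pcn-1 had 73.4 in replicate 1 and 69.9 in replicate 2. The histone genes his-67 and his-68 shared a region with 70.7 in replicate 1 and 26.3 in replicate 2, among the 13 core regions over 2 fold apart.

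Further members of the core came from metabolism and signalling. Respiratory chain genes had a core summit at 2 of 72 (2.78%, interval 0.338 to 9.68). The cytochrome oxidase gene cox-5A had 133 in replicate 1 and 101 in replicate 2. The ATP synthase gene atp-1 had 69.0 in replicate 1 and 39.1 in replicate 2. Of the 10 respiratory chain genes with any conservative summit, 8 had it in the other regions alone. The scaffold gene cnk-1 had 169 in replicate 1 and 102 in replicate 2, and cdc-48.1, for an ATPase that unfolds ubiquitinated proteins, had 143 in replicate 1 and 109 in replicate 2. The pseudogene K08F11.6 had 174 in replicate 1 and 70.3 in replicate 2, the widest gap among the 25 strongest regions. Nuclear hormone receptors had a core summit at 2 of 269 genes (0.743%, interval 0.0902 to 2.66), where 1.05% was the share of all protein-coding genes. These were nhr-47 and nhr-255. The nhr-47 region is the one also assigned to dnj-19, and in the nhr-255 region the tRNA gene ZK678.t1 was nearer. Chemoreceptors had one at 4 of 1364 genes (0.293%, interval 0.0800 to 0.749), among them sre-23, sri-5 and srh-16. Of these, sre-23 lay near the snoRNA gene ZK265.10.

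A core summit was found at 0 of 240 C-type lectins, 0 of 174 cuticle collagens and 0 of 7 vitellogenin and yolk receptor genes. Counting error allows up to 1.53%, 2.10% and 41.0% for these, and the share of all protein-coding genes was 1.05%. The list of CoREST and LSD1 factors had no core summit among its 12 genes, which allows up to 26.5%. Within it, hmg-20 alone had a conservative summit, with 34.6 in replicate 1 and 34.1 in replicate 2, at rank 580 and in neither replicate list. The other members, among them lsd-1, rcor-1 and spr-5, had no conservative summit.

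Shared windows were common. Of the 150 core summits in a protein-coding window, 60 (40.0%, interval 32.1 to 48.3) lay in the windows of 2 or more protein-coding genes, as did 95 of 334 other summits (28.4%, interval 23.7 to 33.6). Which of the neighbours a region belongs to cannot be told from the lists. With each summit given to the nearest 5′ end alone, 113 protein-coding genes and 7 ribosomal protein genes had a core summit, where the windows gave 210 and 12.

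X and the autosomes differed in where their core regions lay, in counts that were not tested. X held 64 of 271 core regions (23.6%, interval 18.7 to 29.1) and 146 of 708 others (20.6%, interval 17.7 to 23.8), and makes up 17.7% of the nuclear genome. Without small RNA windows it held 17.0% of the core and 14.7% of the others. In the strongest of the 4 groups by signal, X held 26.2% of core and 14.0% of other regions. In the next group the order was the opposite, with 14.8% and 23.4%. Outside promoters lay 18 of 64 core regions on X (28.1%) and 24 of 207 on autosomes (11.6%). Among the other regions the order was the opposite, with 31 of 146 on X (21.2%) and 153 of 562 on autosomes (27.2%). The core regions outside promoters on X had a median pooled signal of 223 (quartiles 168 and 284), and those on autosomes had 111 (quartiles 97.3 and 157). Core regions in promoters had medians of 118 on X and 119.9 on autosomes. Of the 25 strongest conservative regions, which were all in the core, 10 were on X, and 8 of these 10 lay outside promoters. None of the 15 autosomal ones did, since 17 of the 25 were in promoters. These counts depend on the promoter limit of 1000 bp. The X regions of ranks 5, 9, 12 and 17 lay at -1497, -1257, -1806 and -1828 bp from the nearest 5′ end. A promoter of 2000 bp upstream would take them in, with the X core regions of ranks 75 and 174, at -1241 and -1222 bp. It would also take in the autosomal core regions of ranks 62, 227, 229, 255, 263 and 321. These lay at -1514, -1979, -1048, -1231, -1137 and -1450 bp. Counts outside promoters on X and autosomes, here and below, were not repeated with that promoter.

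The strongest X regions outside promoters were high in both replicates. The region of rank 4, in an intron and at -3376 bp from the nearest 5′ end, had 159 in replicate 1 and 164 in replicate 2. The region of rank 5, in intergenic sequence, had 156 in replicate 1 and 158 in replicate 2. The region of rank 6 (13700750 to 13700975) had 178 in replicate 1 and 144 in replicate 2. These 3 were behind only the regions at ZK994.7, rpl-3 and rpl-20. The region of rank 9 had 167 in replicate 1 and 119 in replicate 2, that of rank 12 had 137 in replicate 1 and 142 in replicate 2, and that of rank 14 had 141 in replicate 1 and 128 in replicate 2. On autosomes, the strongest region outside promoters was at 1831316 to 1831420 of chromosome IV, in an intron, with 103 in replicate 1 and 117 in replicate 2. The median pooled signal of 223 on X thus stood beside a highest value of 226 on the autosomes.

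Within the conservative list, 12 of the 18 regions with the letters GCGCAGGG were X core regions. They were searched on both strands, after the values had been seen. Their last 3 letters can also belong to a GC box on the minus strand. They were found in 12 of 64 core regions on X (18.8%, interval 10.1 to 30.5) and in 1 of 207 on autosomes (0.483%, interval 0.0122 to 2.66). Among the other regions they were found in 2 of 146 on X (1.37%) and 3 of 562 on autosomes (0.534%). Of all ranked regions they were found in 34 of 12351 on X (0.275%) and 63 of 46745 on autosomes (0.135%). In windows of 250 bp before to 50 bp after gene starts, 0.0811% held them. Outside promoters on X the count was 8 of 18 core regions (44.4%, interval 21.5 to 69.2) and 1 of 31 others (3.23%). These 18 and 31 regions had median pooled signals of 223 and 67.9, and the share with the letters was not split by signal. Of the 15 X core regions with a pooled signal of 200 or more, 9 held the letters.

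Distances between matches and summits were described within the regions. In 10 of the 12 X core regions the nearest match was centred within 50 bp of the summit, with a median distance of 26 bp. Only the regions themselves were searched, so their width limited how far from a summit a match could lie. Randomly placed matches were not compared, so whether these lay closer to summits than such matches would was not tested. The regions of ranks 4, 5 and 14 printed above held 2 matches each, and in the region of rank 4 these lay 14.5 and 13.5 bp from the summit. The X core regions in promoters that held the letters were near nspc-17, C18A11.13, ins-39 and the tRNA gene F38G1.t2. At nspc-17 the signal was 146 in replicate 1 and 145 in replicate 2. At ins-39, an insulin-like gene, it was 137 in replicate 1 and 74.5 in replicate 2. The autosomal core region with a match was at a copy of the snRNA gene R07E5.16 on chromosome IV. A match describes the letters and does not show that the complex binds there, and which of these places are recruitment sites was not tested.

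**Figure D5:**
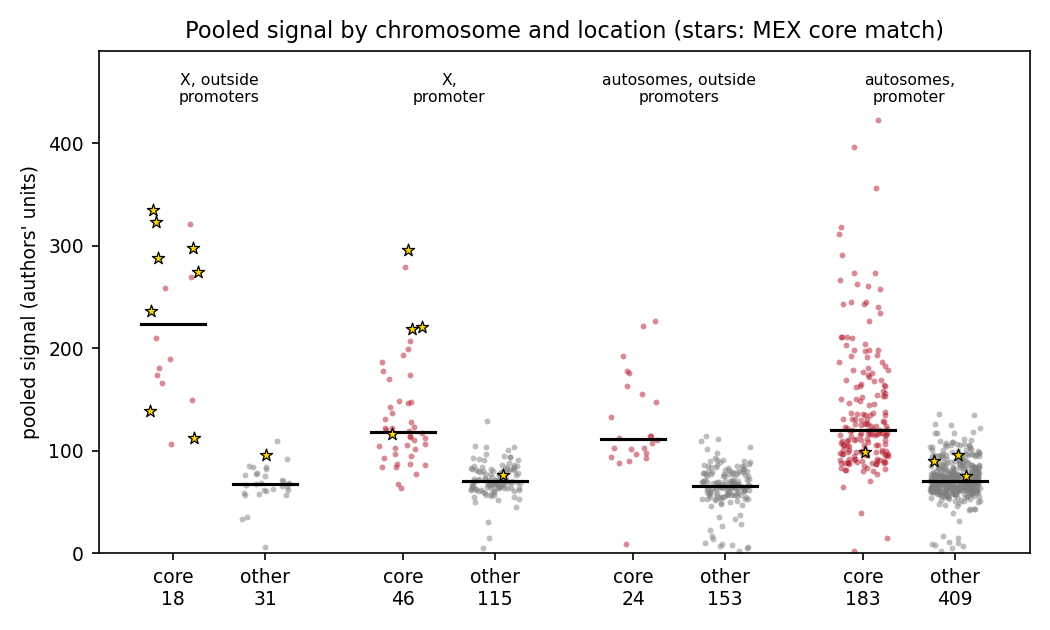
Pooled signal (authors' units) of core regions (red) left of other regions (grey), on X and autosomes, outside and inside promoters. Each point is 1 region, black bars are medians, numbers under the axis count regions, and stars mark regions with the letters GCGCAGGG. The 18 core regions outside promoters on X have a median of 223, and 8 of them carry a star.

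Base composition differed little between the sets. The median GC content of the 100 bp around the summit was 50% in the core (quartiles 46.5 and 55) and 49% in the other regions (quartiles 44 and 54). It was 41% over all ranked regions and 35.4% over the nuclear genome. The GC box letters CCGCCC were found in 14.0% of core regions (interval 10.1 to 18.7) and 10.9% of others (interval 8.68 to 13.4), and in 6.16% of all ranked regions. The SOX-type letters ACAAAG, searched because HMG boxes of SOX proteins bind such letters, were found in 7.75% of core regions (interval 4.86 to 11.6) and 10.9% of others (interval 8.68 to 13.4), and in 14.1% of all ranked regions. The letters TTTGAA of the cell cycle element CHR were found in 35.8% of the core, 35.5% of the others and 45.1% of all ranked regions. The E2F-type letters TTCCCGCC, which can overlap a GC box, were found in 2.21% of the core, 1.98% of the others and 1.10% of all ranked regions. GAGAGAGA was found in 6.27% of core regions, 6.50% of others and 2.76% of all ranked regions. Both strands were searched, and ranked regions differ in length. For these 5 motifs the intervals of the sets overlapped.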

How the data were processed

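ChIP-seq peak lists of 2 biological replicates of HMG-20 were used, on ce11 per the labels. Fragmentation was by sonication, per the labels. Neither aligner nor peak caller is named in the labels used here. The deposited score is the authors' scaled IDR, and the lowest in the thresholded lists was 830. The deposited signal is the authors' signal value for each peak, whose measure and scale are not stated. The deposited −log10 values are q-values and IDRs. Replicate lists were called per replicate by the authors, and the pooled signal has no error of its own. Read depth is unknown.

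Replicate values are the strongest overlapping region in each replicate's ranked list, and at all 271 core regions they equalled the pair in the series' ranked list. Regions were annotated with Ensembl release 115, tRNA isotypes came from RefSeq, and shares carry exact Clopper-Pearson 95% intervals, which cover counting error only. No test was made, since the rule used these replicates. Members, gene lists and motifs were chosen with earlier results of these data known. The genes named were the nearest within 1000 bp of the 25 strongest core and 8 strongest other regions, up to 5 per class or list, 3 regions on each side of the threshold, and the CoREST list with hmg-20. One gene that the rule names is not reported here. Regions outside promoters, carriers of GCGCAGGG and efl-1 were named after their values were seen. Overlap, score, series list, promoter, window and nearest-gene alternatives were tried. The overlap, location and motif steps were tested on simulated data. Python 3.11.15, NumPy 2.4.6, pandas 2.3.3, SciPy 1.17.1 and matplotlib 3.10.9 were used.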

Additional observations from a re-analysis of the deposited data

How the results depend on the processing

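No paired analysis was possible because there is 1 group. With 1 replicate list in place of both (each replicate left out in turn), the core had 405 to 433 regions, a median pooled signal of 101 to 104, promoter shares of 80.6 to 83.5% and 288 to 316 protein-coding and 14 to 16 ribosomal protein genes. Stricter overlap rules, the highest score alone, the series' other thresholded list and summits near a stronger one left out gave 263 to 270 regions, and with the highest score alone the other regions had promoter and small RNA shares of 79.2% and 32.7%. A promoter of 500 bp on each side gave 78.2% of the core, one of 2000 bp upstream gave 90.4% of the core and 83.1% of the others, and protein-coding 5′ ends alone gave 55.4% and 47.2%. Without small RNA windows these shares were 76.1% and 64.0%, and the X share of the core was 17.0%. The nearest gene alone left 113 protein-coding and 7 ribosomal protein genes. In a window of 200 bp the core's GC content was 46.5%. Without X, an alternative chosen after seeing the data, the B box share of the core was 2.42%, and the small RNA share of the others was 22.4%. Of 34 recomputed counts, 30 stayed within 1.5 times the main count. Of 79 recomputed medians and shares, 65 stayed within the replicate spread or exact interval of the main value. Depth is unknown, and its part in membership was not tested.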

Other observations

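In the replicate lists, 70 regions of replicate 1 and 47 of replicate 2 overlapped no conservative region. Among the other regions, 8 overlapped no region in the ranked list of replicate 1 and 14 overlapped none in that of replicate 2. The count of other regions that reached the threshold score in both ranked lists was 0.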
